A study of Mus musculus with 75 samples.

Results

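Gene expression in untreated libraries of the submucosal plexus was compared between 2 gut regions of adult mice, colon and small intestine. The comparison holds 11 of the 75 libraries of the study, 5 from colon and 6 from small intestine, and 14090 of 21051 genes passed the filter on low counts and were tested. All 11 came from mice of 1 reporter genotype, which carries the green fluorescent protein eGFP, and none of these mice had received an injection (time 0 h). Of the colon libraries 3 are labelled female (F1, F2 and F3) and 2 male (M1 and M3), and of the small intestine libraries 3 female (F1 to F3) and 3 male (M1 to M3). A further 11 untreated libraries of the same genotype, 5 from colon and 6 from small intestine, came from the myenteric plexus and shared the fit. The rest of the study treated mice with LPS (a bacterial endotoxin) or PBS and, in part, removed Gpr37, and was not used here. RNA was made into libraries by Smart-seq2, a whole-transcript method that adds no molecular identifiers, and the labels call every sample enteric glial cells (EGC). They do not say how the cells were isolated, whether libraries came from separate mice, or whether a mouse gave both regions, so p-values measure the spread between these libraries.

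Enteric glia are the non-neuronal cells of the gut's own nervous system, and surround neurons in the myenteric plexus between the muscle layers and in the submucosal plexus beneath the mucosa. They arise from the neural crest and carry the transcription factor Sox10 and the calcium-binding protein S100b. The small intestine digests and absorbs nutrients through villi and holds Paneth cells at its crypt bases, whereas the colon recovers water and salt, lacks villi and carries a dense microbiota. Hox genes mark position along the body axis, with the posterior members active in the hindgut.

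The libraries held RNA of many cell types besides glia. Summed over 16 enteric glia markers, the level was 1704, 2296, 5429, 1437 and 7947 CPM in colon (CPM, read counts as a share of the library, scaled by TMM; colon values are always in the order F1, F2, F3, M1 and M3) and 710.1 to 2849 (median 1807) CPM in small intestine. Every one of these 11 sums lay below those of the myenteric libraries, which ran from 8533 to 20251 CPM. Transcripts of antigen-presenting cells were abundant: the 10 MHC class II genes summed to 12336 to 52432 CPM in small intestine and to 16532 to 29782 CPM in 4 colon libraries. The 12 epithelial markers summed to 3134 to 12207 CPM in colon and 2274 to 11599 CPM in small intestine. Values below therefore describe mixed libraries of the submucosal plexus, and in them fewer cells of a type and less RNA per cell cannot be told apart.

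Colon library M3 stood apart. It had the highest glia sum (7947 CPM) and the highest epithelial sum (12207 CPM), and almost no immune transcripts: the MHC class II genes summed to 884 CPM, the 12 macrophage and dendritic cell markers to 224 CPM against 6779 to 11573 CPM in the other colon libraries, and the 12 T cell markers to 7.03 CPM against 261 to 631 CPM. Results are therefore also given without it. Total counts ran from 2547296 to 7154857 in colon and from 3010934 to 7456338 in small intestine, and no difference was detected (exact permutation test, two-sided, adjusted p = 0.981 over 4 library measures; the smallest p possible is 0.00216). The 20 most abundant genes took 15.5% ± 2.71 (SD, n = 5) of counts in colon and 20.6% ± 2.76 (SD, n = 6) in small intestine (exact permutation test, adjusted p = 0.0346). With 1 library left out that adjusted p ran from 0.0190 to 0.0635, and it stayed under 0.05 only without colon M1 or small intestine M2.

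**Figure D1:**
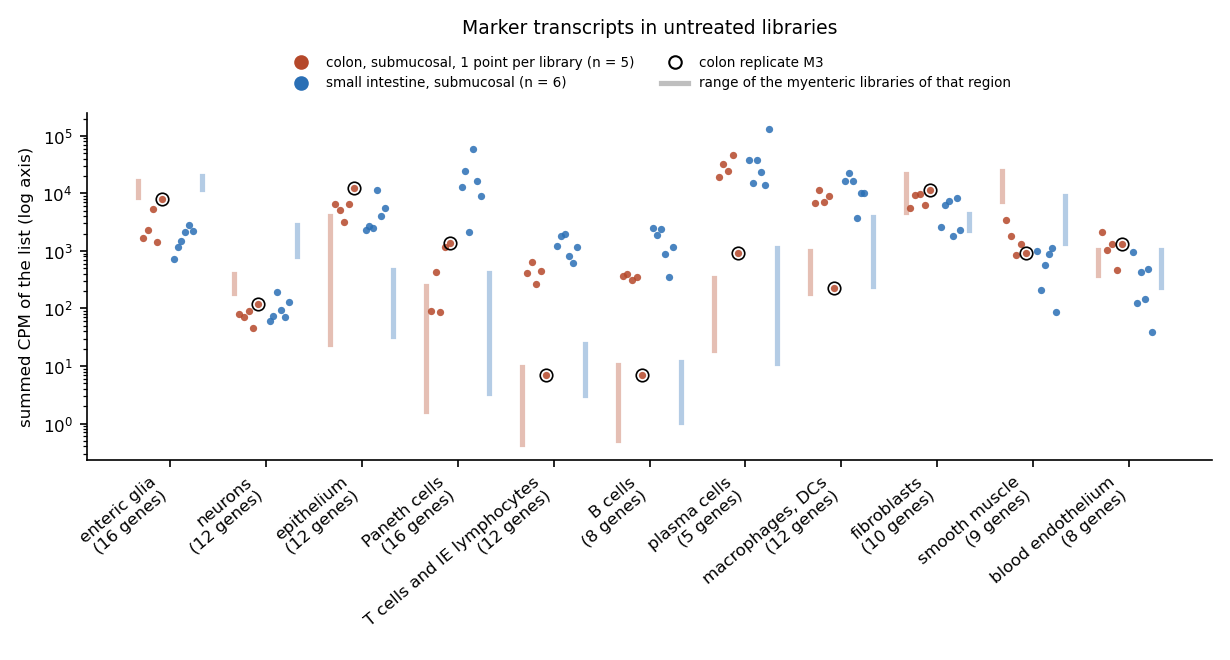
Summed CPM (log axis) of marker lists in each untreated submucosal library, 5 from colon (red) and 6 from small intestine (blue), with colon replicate M3 ringed; vertical bars give the range of the myenteric libraries of each region. Glia sums of the submucosal libraries lie below both myenteric bars, and M3 lies with the other colon libraries for fibroblasts but far below them for T cells, B cells, plasma cells and macrophages.

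Of the 14090 genes, 730 (5.18%) differed between the regions with edgeR's quasi-likelihood test at an adjusted p under 0.05. Higher levels in colon were found for 538 genes (3.82%) and lower levels for 192 (1.36%). In 412 of the 730 the colon and small intestine libraries did not overlap. Over all genes tested, 476 (3.38%) lay wholly above the small intestine in colon and 322 (2.29%) wholly below it, and the median log2 fold change (colon over small intestine) was -0.054. Without colon M3, 357 genes (2.5%) were called, 250 higher (1.75%) and 107 lower (0.748%), and 348 of them were among the 730. Leaving out colon F3 gave 462 calls and leaving out small intestine F2 gave 484, and DESeq2 called 1149 genes. The submucosal comparison was also fitted with each of its 11 libraries left out in turn. Of the 98 called genes that are named by the rule, 69 were called in every such fit that tested them, 4 lost the call in 1 fit and 25 in 2 or more. The 46 gene lists used here held 619 tested genes, of which 130 were called.

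**Figure D2:**
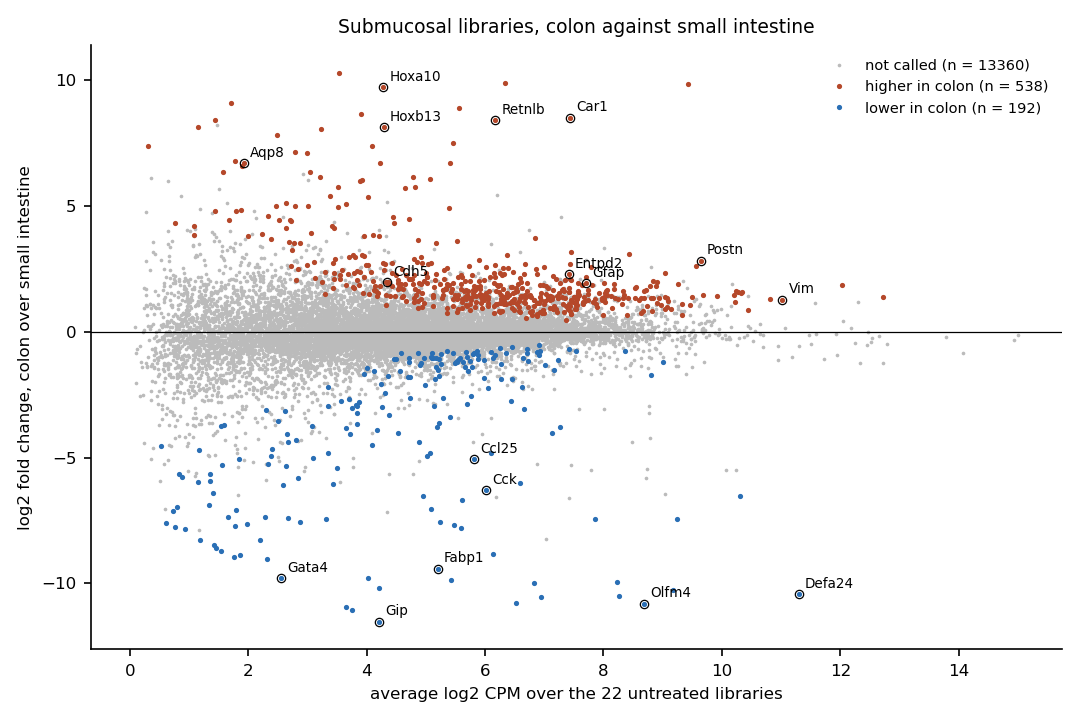
Log2 fold change of colon over small intestine in submucosal libraries against average log2 CPM for the 14090 genes tested, with 538 genes called higher in colon (red) and 192 called lower (blue). The largest decreases at high abundance include Defa24 and Olfm4, and the largest increases include Hoxa10, Hoxb13, Car1 and Retnlb.

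Genes of body position differed in both directions. Of 28 tested Hox genes, 8 were higher in colon and 2 lower, with a median log2 fold change of 1.32; the 8 all belong to the central and posterior groups (Hoxa7, Hoxa9, Hoxa10, Hoxa11, Hoxa13, Hoxb13, Hoxd10 and Hoxd13), and the 2 lower genes are Hoxc4 and Hoxc8. Of the 39 genes listed, 11 did not pass the filter. Hoxa10 (chr6:52231197-52240854) stood at 50.3, 48.4, 42.1, 51.0 and 40.4 CPM in colon and at 0 to 0.360 (median 0) CPM in small intestine, where 5 of 6 libraries held no count (1466 (95% exact interval 263 to 57963)-fold by summed counts, adjusted p = 1.6e-05). Hoxb13 (chr11:96194316-96196610), the most posterior gene of its cluster, was at 78.4, 55.3, 36.8, 69.5 and 59.4 CPM in colon against 0 to 1.06 (median 0) CPM (log2 fold change 8.11 ± 1.85 (SE), adjusted p = 0.0117). For each of these genes every colon library was above every small intestine library, and M3 was close to the other colon libraries.

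Hoxa13, which patterns the hindgut and the limb ends, was at 12.4, 8.54, 5.58, 10.7 and 3.04 CPM in colon and was detected in 1 small intestine library (0 to 0.719 CPM). Hoxd13 was at 12.9, 2.85, 7.87, 7.03 and 0.570 CPM in colon and had no count in small intestine (at least 10.0-fold higher against 3 counts per library, adjusted p = 0.00698). Hoxa9 was at 21.4, 3.20, 11.2, 17.0 and 15.4 CPM against 0 to 2.52 (median 0) CPM (log2 fold change 5.13 ± 1.24 (SE), adjusted p = 0.0166), and its lowest colon library, F2, was close to the highest small intestine library. Hoxa7 was present in both regions, at 22.3, 6.40, 12.8, 17.4 and 21.5 CPM and 2.16 to 6.38 (median 3.07) CPM (log2 fold change 2.08 ± 0.43 (SE), adjusted p = 0.00625). Hoxd10 was the weakest of the 8, at 1.24 to 3.23 CPM in colon (adjusted p = 0.0428; called in 1 of 11 fits without 1 library). Hoxa11 stood at 13.2, 16.5, 13.6, 11.1 and 7.79 CPM in colon and the antisense gene Hoxa11os at 29.4, 22.2, 16.5, 37.4 and 34.9 CPM, against 0 to 0.360 CPM and no count in small intestine. The annotated spans of these 2 genes overlap (chr6:52242105-52245810 and chr6:52245243-52249769), and it is not given whether counting used strand, so reads in the shared stretch cannot be told apart.

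Both called genes of the HoxC cluster were lower in colon. Hoxc8 was detected in all 6 small intestine libraries at 1.32 to 5.14 (median 3.85) CPM and in colon only in F1, at 0.145 CPM (adjusted p = 0.00111). Hoxc4 was at 0, 0, 0.634, 0 and 0.190 CPM in colon and 1.95 to 7.91 (median 3.69) CPM in small intestine (log2 fold change -4.29 ± 0.80 (SE), adjusted p = 0.00265). Gata4 (chr14:63198914-63271712), the transcription factor that maintains jejunal identity in the epithelium, had no count in any colon library and stood at 11.2 to 28.6 (median 19.7) CPM in small intestine (at least 32.7-fold lower in colon, adjusted p = 0.00111). Its relative Gata5 was likewise without counts in colon and at 4.87 to 23.9 (median 9.60) CPM in small intestine (adjusted p = 0.0429; called in 1 of 11 fits without 1 library). Onecut2, a cut-homeobox factor, was found in 1 colon library and in all 6 small intestine libraries at 0.923 to 13.3 (median 4.54) CPM (adjusted p = 0.0128). Osr1, a mesenchymal zinc-finger factor, was the only called gene higher in colon among 18 regional transcription factors, at 19.1, 11.9, 26.4, 32.6 and 5.32 CPM against 2.12 to 7.16 (median 2.48) CPM (log2 fold change 2.33 ± 0.62 (SE), adjusted p = 0.0308; called in 4 of 11 fits without 1 library). M3 was the lowest colon library for Osr1 and lay within the small intestine range.

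**Figure D3:**
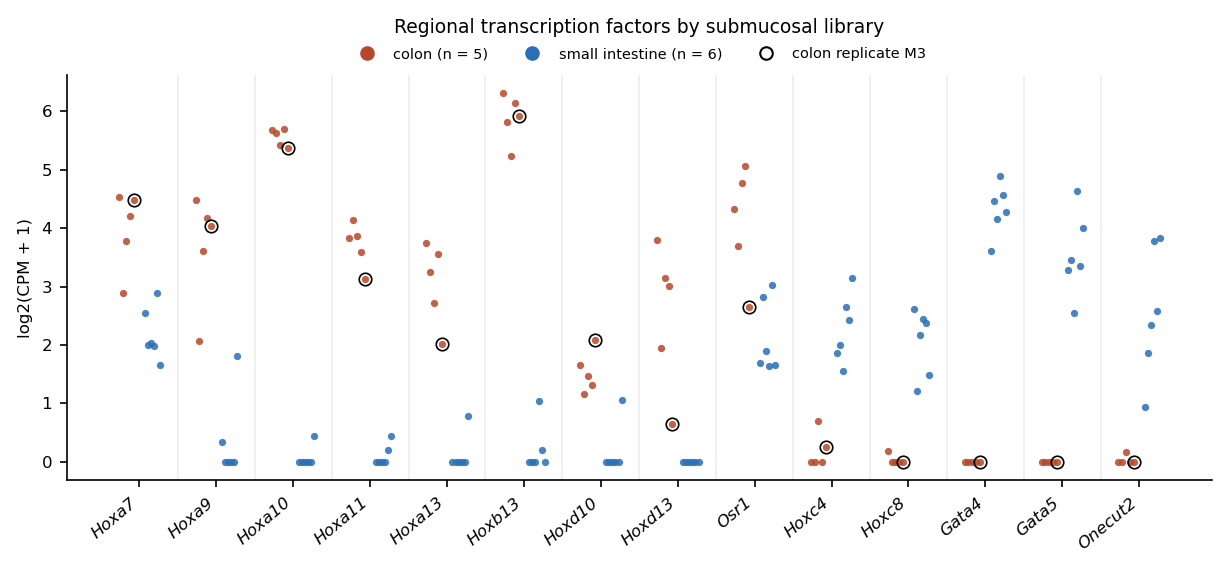
Log2(CPM + 1) of called Hox genes and regional transcription factors in each submucosal library, colon in red (n = 5, M3 ringed) and small intestine in blue (n = 6). The genes from Hoxa7 to Osr1 are higher in colon and the genes from Hoxc4 to Onecut2 are lower, with Gata4 and Gata5 at 0 in all colon libraries.

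Most tested products of the Paneth cell, the secretory cell of small intestinal crypts that releases antimicrobial peptides, were lower in colon. Of 16 listed Paneth genes 12 were tested, and 11 were lower in colon with none higher. The median log2 fold change of the 12 was -10.22, or -8.83 with genes absent from colon set at 3 counts per library. Members with almost no counts outside the small intestine submucosal group, such as Defa34 and Defa3, passed the count filter through that group. They could only come out lower in colon, and the count and median carry that limit. Defa24 (chr8:21734494-21735471), an alpha-defensin, was at 1.88, 11.6, 12.3, 5.55 and 1.71 CPM in colon and 781 to 27971 (median 6645) CPM in small intestine (log2 fold change -10.42 ± 1.73 (SE), adjusted p = 0.00103). Lyz1, the Paneth lysozyme, was at 28.8, 62.6, 60.4, 92.8 and 2.66 CPM against 549 to 12892 (median 3032) CPM (log2 fold change -6.53 ± 1.34 (SE), adjusted p = 0.00589). Itln1, a lectin that binds microbial sugars, was at 3.33, 10.7, 5.46, 14.4 and 29.8 CPM against 425 to 5468 (median 1691) CPM (log2 fold change -7.43 ± 1.34 (SE), adjusted p = 0.00191). Every small intestine library was above every colon library for these 3 genes, although small intestine F3 was lowest of its group each time. The summed Paneth list ranged from 2174 to 59708 CPM over the 6 small intestine libraries, so the amount of Paneth RNA itself varied widely between them.

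The alpha-defensins are a gene family on chromosome 8 with close copies among them, and how reads shared between them were counted is not given. The 250 bases before the start of Defa21 and of Defa22 are the same in RefSeq (GRCm38.p6). In an end-to-end alignment Defa30 has 173 bases identical with them, 61.8% of the alignment when gaps are counted as differences. To show a pair of identical promoters beside a more distant one, the last 100 bases before the start are given for Defa21 (chr8:21025445-21025544, plus strand), for Defa22 (chr8:21162177-21162276, plus strand) and for Defa30 (chr8:21134550-21134649, plus strand), 5′ to 3′ in lower case:
Defa21: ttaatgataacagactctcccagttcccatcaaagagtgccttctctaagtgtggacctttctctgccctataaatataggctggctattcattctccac
Defa22: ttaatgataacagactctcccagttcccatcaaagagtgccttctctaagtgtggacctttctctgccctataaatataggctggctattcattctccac
Defa30: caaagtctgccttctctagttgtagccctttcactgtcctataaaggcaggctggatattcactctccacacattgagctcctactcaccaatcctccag
In colon Defa21 and Defa22 were at 0 to 0.634 and 0 to 0.711 CPM and in small intestine at 56.9 to 1131 (median 313) and 46.2 to 1161 (median 297) CPM (log2 fold changes -10.54 ± 1.5 and -9.99 ± 1.38). Defa30 was at 0 to 4.27 CPM in colon and 179.8 to 5532 (median 1611) CPM in small intestine. Defa34 and Defa3 had no count in colon (at least 78.9-fold and at least 73.6-fold lower by mean level). In small intestine they were at 4.09 to 154 (median 32.8) and 1.75 to 147 (median 27.5) CPM, with M1 highest for both. These values are best read for the family, since the split between copies is uncertain.

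Olfm4 (chr14:80000302-80023141), which marks small intestinal stem cells, was at 0, 0, 2.92, 0 and 0.570 CPM in colon against 526 to 3233 (median 1323) CPM (log2 fold change -10.80 ± 2.01 (SE), adjusted p = 0.00257). It was the only called member among 7 stem cell genes, whose median was -1.08. Mptx2, a Paneth cell pentraxin, was at 0.723, 3.02, 0.381, 1.11 and 0.380 CPM in colon and 59.2 to 3551 (median 734) CPM in small intestine (log2 fold change -9.92 ± 1.55 (SE), adjusted p = 0.000719). Its paralogue Mptx1 ran the other way, at 2133, 1025, 12.8, 4709 and 6032 CPM in colon and 0 to 10.4 (median 2.04) CPM in small intestine (log2 fold change 9.82 ± 2.42 (SE), adjusted p = 0.019), and colon F3 lay just above the highest small intestine library.

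Of 12 tested markers of enteroendocrine cells, most of them hormone genes, 5 were called lower in colon and none higher (3 lower without M3). Log2 fold changes were positive for 4 of the 12. Gip, the incretin of duodenal K cells, had no count in colon and was at 1.05 to 312 (median 16.0) CPM in small intestine (at least 109-fold lower in colon by mean level, adjusted p = 0.0138). That mean was carried largely by F2, at 312 CPM, while F1, M1 and M3 were at 1.05, 2.54 and 2.88 CPM. Cck, which triggers gall bladder contraction, was at 1.45, 3.02, 1.65, 9.62 and 0.380 CPM in colon and 9.09 to 593 (median 74.9) CPM in small intestine (log2 fold change -6.31 ± 1.31 (SE), adjusted p = 0.00657). Ghrl, the precursor of ghrelin, was at 0, 0, 0, 5.92 and 0 CPM against 5.67 to 689 (median 43.4) CPM (log2 fold change -7.78 ± 1.38 (SE), adjusted p = 0.00177). For Cck and Ghrl the highest colon library, M1, was slightly above the lowest small intestine library, and levels within the small intestine spread over more than an order of magnitude.

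Uptake genes called for fat, sugar and peptides were all lower in colon. In fat absorption 8 of 17 tested genes were lower and none higher (median log2 fold change -3.69), and in sugar and peptide digestion 9 of 19 were lower and none higher (median -2.27; 5 of 19 without M3). Fabp1, the liver-type fatty acid carrier, was at 0, 0, 0.634, 0 and 0 CPM in colon and 23.6 to 269 (median 94.3) CPM in small intestine (log2 fold change -9.41 ± 1.29 (SE), adjusted p = 0.000219). Apoa1, a lipoprotein scaffold, was at 0.723, 0.711, 0.634, 0 and 0.190 CPM against 79.1 to 532 (median 231) CPM (log2 fold change -8.84 ± 1.02 (SE), adjusted p = 2.67e-05). Apoa4, made during fat absorption, had 1 count in all colon libraries together and was at 17.1 to 85 (median 48.3) CPM in small intestine (adjusted p = 4.08e-05). Sis, the brush-border sucrase-isomaltase, was at 0.579, 0, 2.16, 0 and 0.190 CPM in colon and 24.4 to 448 (median 71.4) CPM in small intestine (log2 fold change -7.57 ± 1.16 (SE), adjusted p = 0.000642). All small intestine libraries exceeded all colon libraries for these 4 genes.

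Some further genes of digestion, bile acids and retinoids were also called lower. Anpep, an aminopeptidase of the brush border, was at 3.18, 10.1, 8.25, 6.29 and 6.27 CPM against 19.6 to 129 (median 40.3) CPM (log2 fold change -2.98 ± 0.67 (SE), adjusted p = 0.011), and Khk, which phosphorylates fructose, was at 25.3, 29.2, 11.9, 22.2 and 19.7 CPM against 50.9 to 132 (median 73.3) CPM (log2 fold change -1.87 ± 0.36 (SE), adjusted p = 0.00381). Slc51a, a subunit of the basolateral bile acid exporter, was the called member among 6 tested bile acid genes, at 7.09, 13.2, 6.60, 6.29 and 8.92 CPM in colon and 13.4 to 144 (median 30.8) CPM in small intestine (log2 fold change -2.44 ± 0.51 (SE), adjusted p = 0.00663). Among 15 retinoid genes, 3 were lower in colon and none higher. Rbp2, the enterocyte retinol carrier, was at 1.16, 1.78, 0.127, 2.59 and 0.570 CPM in colon and 39.0 to 223 (median 75.3) CPM in small intestine (log2 fold change -6.51 ± 1.18 (SE), adjusted p = 0.002). Lrat, which esterifies retinol for storage, was at 0.868, 0.889, 2.66, 1.11 and 7.41 CPM against 14.4 to 79.2 (median 37.9) CPM (log2 fold change -3.92 ± 0.74 (SE), adjusted p = 0.003), and M3 was the highest colon library. Of 14 tested genes of iron, calcium and vitamin uptake, 1 was called (7.14%, against 5.18% of all genes, and none without M3). Log2 fold changes were positive for 9 of the 14, with a median of 0.16 that turned to -0.05 without M3. The called gene, Amn, the partner of cubilin in vitamin B12 uptake, was at 0.370 to 3.91 CPM in colon and 8.31 to 31.5 CPM in small intestine (adjusted p = 0.0342; called in 4 of 11 fits without 1 library).

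Of 12 epithelial markers shared by both regions, none was called with edgeR or with DESeq2, and none had an unadjusted p under 0.05. Their median log2 fold change was 0.40, and 0.09 without M3. In simulated counts 10.4% of changes of 1 on the log2 scale were recovered, so small differences in these markers could be missed. The summed epithelial level overlapped between the regions, as given above, and its part in single genes was not tested.

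Promoters of 3 genes lower in colon and 1 gene higher in colon are printed below, to show where the letters of gut transcription factor motifs lie. Sequences are the 250 bases before the start from RefSeq (GRCm38.p6), 5′ to 3′, and capitals mark the letters AGATAA, a motif of the Gata factors, and TTTATG, a motif of the Cdx factors, on either strand. CAAAGTCCA, a motif of Hnf4 factors, was also searched. The genes printed were picked among windows that held a match. The windows of Apoa4, Slc6a14, Hoxa10, Defa21, Defa22 and Defa30 and the second window of Postn held none of the 3 motifs, nor did the first window of Ccl25. The window of Olfm4 and the second of Ccl25 held TTTATG but are not printed. The genes are Fabp1 (chr6:71199629-71199878, plus strand), Sis (chr3:72967864-72968113, minus strand), Lct (chr1:128328319-128328568, minus strand), the lactase gene, and Postn (chr3:54359017-54359266, plus strand, the first of 2 starts):
Fabp1: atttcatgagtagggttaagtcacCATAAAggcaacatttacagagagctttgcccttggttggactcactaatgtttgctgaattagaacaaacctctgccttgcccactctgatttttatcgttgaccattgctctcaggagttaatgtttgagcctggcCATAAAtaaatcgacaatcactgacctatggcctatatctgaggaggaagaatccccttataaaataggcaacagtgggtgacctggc
Sis: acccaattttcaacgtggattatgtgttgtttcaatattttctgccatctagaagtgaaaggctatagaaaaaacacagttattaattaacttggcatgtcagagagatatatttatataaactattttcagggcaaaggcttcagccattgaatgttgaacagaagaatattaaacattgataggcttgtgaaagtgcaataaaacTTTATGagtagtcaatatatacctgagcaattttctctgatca
Lct: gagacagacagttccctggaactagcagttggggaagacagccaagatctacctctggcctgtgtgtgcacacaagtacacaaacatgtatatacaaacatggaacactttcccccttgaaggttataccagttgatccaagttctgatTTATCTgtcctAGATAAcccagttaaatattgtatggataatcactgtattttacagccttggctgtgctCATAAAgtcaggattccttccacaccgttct
Postn: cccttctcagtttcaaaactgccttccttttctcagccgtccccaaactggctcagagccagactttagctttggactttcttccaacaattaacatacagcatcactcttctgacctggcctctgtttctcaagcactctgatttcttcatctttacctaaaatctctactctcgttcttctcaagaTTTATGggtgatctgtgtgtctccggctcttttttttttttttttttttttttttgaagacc
Lct held 2 AGATAA matches, the first 101 bases before the start, and 1 TTTATG match. TTTATG also lay 43 bases before the start of Sis, 88 and 226 bases before that of Fabp1, and 62 bases before that of Postn. Lct itself had no count in colon and was at 1.70 to 23.1 (median 9.42) CPM in small intestine (at least 17.6-fold lower in colon, adjusted p = 0.0292; called in 7 of 11 fits without 1 library).

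Over the 11068 tested genes with a RefSeq window, 7.72% held AGATAA, against 15.6% of 147 genes lower in colon and 5.91% of 389 genes higher in colon. TTTATG was found in 7.53% of all, 15.0% of the lower and 10.8% of the higher genes. CAAAGTCCA was rarer, in 0.524% of all, 3.40% (5 genes) of the lower and 0.257% (1 gene) of the higher genes. Genes with several starts were counted once if any window held the letters. Over all 32851 RefSeq windows, each counted singly and including genes not tested, 9.99% held AGATAA, 10.8% TTTATG and 0.384% CAAAGTCCA. The share of TTTATG among genes higher in colon was thus near that over all windows. A match is a description of these windows and not a bound site, and 3022 tested genes had no window in the table.

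Genes of ion and water transport that were called were all higher in colon. Of 19 tested genes, 7 were higher and none lower (5 higher without M3). The median of the 19 log2 fold changes was 1.85, or 1.07 without M3. The list summed to 5719 CPM in M3 and to 924 to 2410.5 CPM in the other colon libraries. Car1 (chr3:14766214-14808365), a carbonic anhydrase of colonic enterocytes, was at 129, 1585, 334, 476 and 1226 CPM in colon and 0 to 6.19 (median 0.627) CPM in small intestine (log2 fold change 8.5 ± 1.42 (SE), adjusted p = 0.00108). Car2, a second carbonic anhydrase, was at 332, 215, 214, 228 and 987 CPM against 8.63 to 43.4 (median 31.5) CPM (log2 fold change 3.71 ± 0.82 (SE), adjusted p = 0.00966), and M3 was the highest colon library by a wide margin. Slc6a14, an amino acid transporter, was at 298, 106, 22.2, 164 and 1093 CPM in colon and 0 to 0.934 (median 0.192) CPM in small intestine (log2 fold change 9.89 ± 1.64 (SE), adjusted p = 0.00103). Among 16 tested tight junction and keratin genes 1 was called (6.25%, against 5.18% of all genes, and none without M3). It was Cldn8, a sealing claudin of the distal gut, at 139.8, 61.5, 12.1, 62.9 and 289.6 CPM against 0.395 to 6.35 (median 1.47) CPM (log2 fold change 5.75 ± 1.31 (SE), adjusted p = 0.0118), but its adjusted p was 0.0522 without M3.

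Secreted defence genes split by region, with 4 of 20 tested higher in colon and 3 lower. Besides Mptx1, the higher genes were Retnlb, Saa1 and Wfdc2, and the lower ones were Mptx2, Itln1 and Lyz1. Retnlb (chr16:48816856-48818892), a bactericidal protein of colonic goblet cells, was at 166, 344, 15.0, 552 and 484 CPM in colon and 0 to 3.81 (median 0.358) CPM in small intestine (log2 fold change 8.41 ± 1.36 (SE), adjusted p = 0.000814). Saa1, an acute-phase protein, was at 21.7, 42.7, 3.17, 108 and 176 CPM against 0 to 0.791 (median 0.448) CPM (log2 fold change 7.38 ± 1.39 (SE), adjusted p = 0.00286), and Wfdc2, an antiprotease, was at 182, 66.9, 18, 64.7 and 149 CPM against 0 to 5.03 (median 0.707) CPM (log2 fold change 6.15 ± 1.49 (SE), adjusted p = 0.0173). Colon F3 was the lowest colon library for all 3 genes, yet remained above every small intestine library. Retnlb was the only called member of 9 goblet cell markers.

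**Figure D4:**
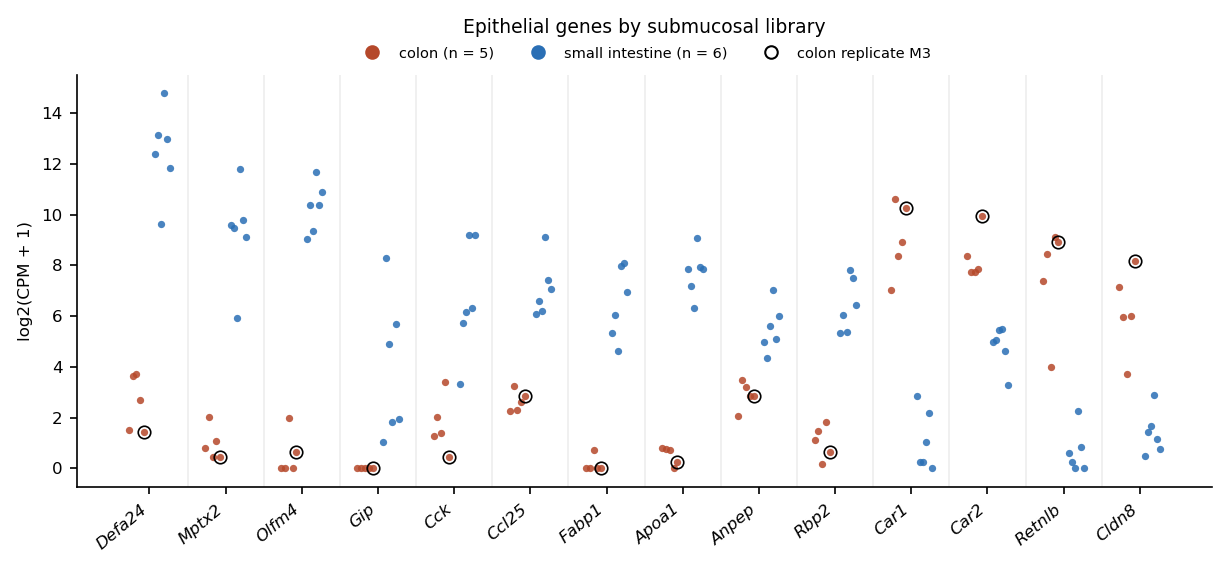
Log2(CPM + 1) of epithelial genes in each submucosal library, colon in red (n = 5, M3 ringed) and small intestine in blue (n = 6). The genes from Defa24 to Rbp2 are lower in colon and the genes from Car1 to Cldn8 higher, and Cck is the gene drawn here in which the groups overlap.

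Other epithelial functions showed regional members in both directions. Among 23 xenobiotic genes, 2 were higher and 3 lower in colon. Cyp2c55, a colonic cytochrome P450, was at 9.84, 289, 24.2, 98 and 488 CPM in colon and 0 to 4.66 (median 1.42) CPM in small intestine (log2 fold change 6.68 ± 1.18 (SE), adjusted p = 0.00172), while Cyp3a11 and Cyp3a25 had no count in colon and reached 10.8 and 9.74 CPM in small intestine (at least 8.47-fold and at least 7.97-fold lower). Cyp3a11 was called in 8 of 11 fits without 1 library, and its adjusted p was 0.0622 without M3, which itself held no count of it. Adh6a, an alcohol dehydrogenase, was at 0.579, 0, 0, 0 and 0.190 CPM against 7.51 to 74.5 (median 24.6) CPM (log2 fold change -7.45 ± 1.62 (SE), adjusted p = 0.00845). Gstm1, a glutathione transferase, was moderately higher in colon, at 159.7, 201, 195, 186 and 258 CPM against 31.1 to 128 (median 65.8) CPM (log2 fold change 1.47 ± 0.25 (SE), adjusted p = 0.00138). St6galnac6, a sialyltransferase, was the 1 called gene of 13 mucin and glycoprotein genes (7.69%, against 5.18% of all genes), at 151, 134, 82.5, 121 and 346 CPM in colon and 16.1 to 25.5 (median 19.6) CPM in small intestine (log2 fold change 3.03 ± 0.34 (SE), adjusted p = 2.01e-05). The largest colon increases by the rule for named genes also held Sval1 (356, 103, 7.74, 132 and 218 CPM against 0 to 0.934 (median 0) CPM), Hao2 (106, 53.0, 29.4, 61.0 and 679.8 CPM against 0 to 2.96 (median 0.566) CPM) and Anxa8 (3.91, 5.87, 5.46, 4.44 and 10.3 CPM against no count). Anxa8 lost its call without colon M3 (adjusted p = 0.059) and without small intestine F1. It was at least 9.63-fold higher in colon against 3 counts per library. Its fitted log2 fold change was 8.05, and 7.77 without M3, and the size of both depends on the prior count of the fit. Myenteric libraries, which enter the average log2 CPM of the rule, had means of 19.6 CPM in colon and 11.9 CPM in small intestine.

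Of 16 enteric glia markers, 4 were higher in colon, none was lower, and 12 were not called; the median log2 fold change was 1.03. Without colon M3, 2 remained called and the median was 0.45. Entpd2, a surface enzyme that breaks down ATP, was at 81.5, 163, 299, 92.1 and 562 CPM in colon and 21.4 to 103 (median 42.1) CPM in small intestine (log2 fold change 2.29 ± 0.42 (SE), adjusted p = 0.00228; 1.69 (adjusted p = 0.0118) without M3). Col28a1, a collagen of peripheral glia, was at 4.48, 11.9, 15.1, 5.55 and 75.2 CPM against 0 to 1.85 (median 0.557) CPM (log2 fold change 4.92 ± 0.79 (SE), adjusted p = 0.000785; 3.66 (adjusted p = 0.00246) without M3). Col28a1 had no overlap between regions, whereas the colon F1 and M1 values of Entpd2 lay below the highest small intestine library.

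Gfap, the intermediate filament of reactive glia, was at 22.9, 29.7, 77.5, 18.1 and 99.7 CPM in colon and 6.19 to 21.6 (median 13.1) CPM in small intestine (log2 fold change 1.92 ± 0.43 (SE), adjusted p = 0.00993), with an adjusted p of 0.0534 without M3. The defining glia genes Sox10 and S100b did not pass the test. Sox10 was at 26.6, 41.6, 148, 18.1 and 248 CPM in colon and 11.1 to 68.8 (median 42.5) CPM in small intestine (adjusted p = 0.261), and S100b at 40.4, 65.8, 105, 37.0 and 127 CPM against 11.9 to 94.9 (median 42.8) CPM (adjusted p = 0.302).

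For both of these defining genes colon F3 and M3 were the 2 highest colon libraries, which are also those with the largest glia sums. Gpr37, the receptor studied in the series, was detected in colon F1 and M3 only (1.74 and 5.32 CPM) and had no count in small intestine; it did not pass the test (adjusted p = 0.0541). Its relative Gpr37l1 was at 64.5, 76.1, 248, 52.9 and 513 CPM in colon and 36.9 to 154 (median 85.4) CPM in small intestine (adjusted p = 0.225). A further 7 markers, Foxd3, Erbb3, Fabp7, Cdh19, Scn7a, Sox2 and Kcna1, had log2 fold changes from -0.56 to 0.91 and adjusted p-values from 0.357 to 0.964.

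**Figure D5:**
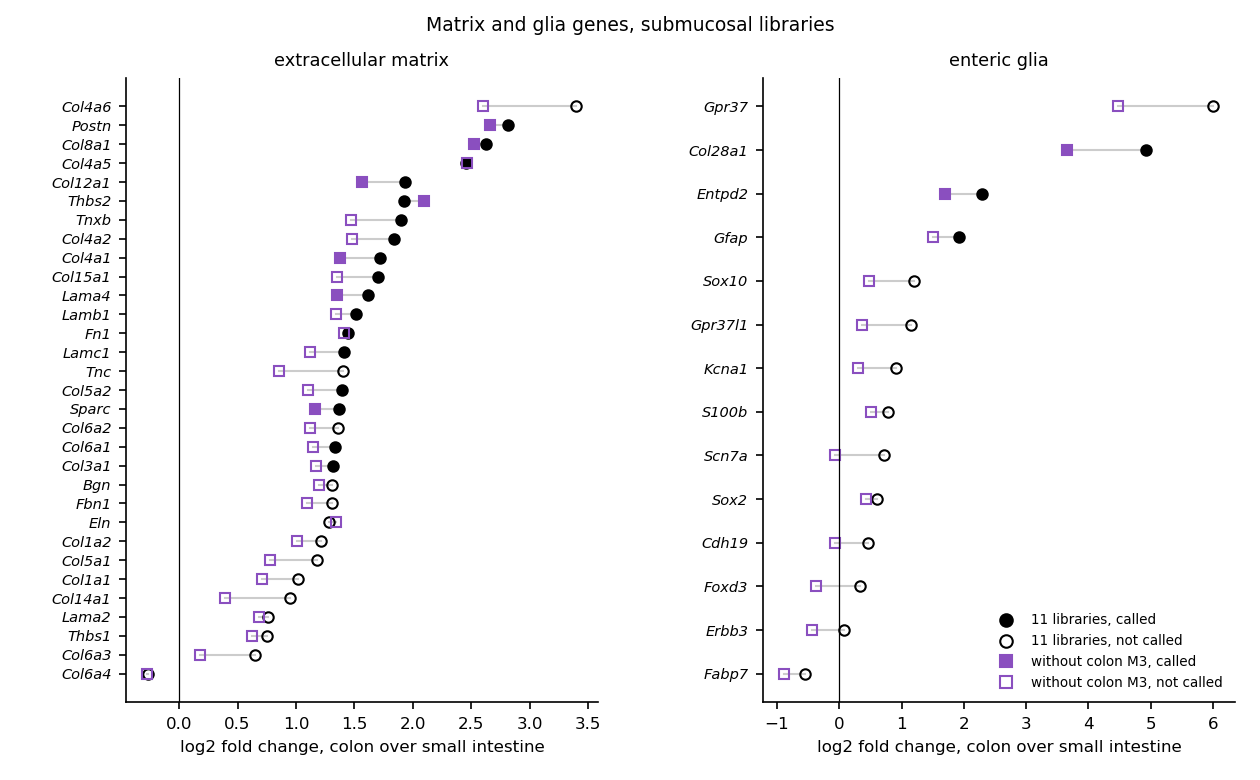
Log2 fold change of colon over small intestine for 31 extracellular matrix genes and 14 of the 16 enteric glia markers, over all 11 libraries (circles) and without colon M3 (squares), filled where the adjusted p is under 0.05. Of the matrix genes, 30 lie above 0 in the full comparison, and all 14 glia values drawn are lower when M3 is left out.

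Some filament and stress-associated genes also differed. Of 35 tested genes that mark reactive astrocytes in the brain, 10 were higher in colon and none lower (7 without M3), with a median of 0.84. Vim (chr2:13574311-13582826), the filament of glia and mesenchymal cells, was at 1616, 1741, 2129, 1564 and 1900.0 CPM in colon and 554 to 994 (median 698) CPM in small intestine (log2 fold change 1.28 ± 0.20 (SE), adjusted p = 0.00076). Emp1, an epithelial and glial membrane protein, was at 87.1, 145, 206, 107 and 284 CPM against 27.5 to 48.9 (median 34.7) CPM (log2 fold change 2.21 ± 0.29 (SE), adjusted p = 0.00014), and Timp1, a metalloproteinase inhibitor, at 12.7, 19.9, 10.4, 10.4 and 13.3 CPM against 1.89 to 4.98 (median 2.92) CPM (log2 fold change 2.12 ± 0.39 (SE), adjusted p = 0.0022). Colon and small intestine libraries did not overlap for these 3 genes. Several of these genes are also expressed by fibroblasts and endothelium, so the list does not separate glia from them.

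Signalling and myelin genes of glia contributed few calls. Gja1 and Gfra2 were higher in colon among 25 glial and neurotrophic genes, and 2 of 13 myelin genes were higher, among them Pmp22. Gja1, the gap junction protein connexin 43, was at 140.0, 128, 78.2, 121 and 81.3 CPM in colon and 4.31 to 51.4 (median 15.8) CPM in small intestine (log2 fold change 2.28 ± 0.48 (SE), adjusted p = 0.00685). Gfra2, the neurturin receptor, was at 27.9, 34.9, 110.3, 39.6 and 214 CPM against 10.9 to 46.2 (median 23.2) CPM (log2 fold change 1.67 ± 0.47 (SE), adjusted p = 0.0412; called in 5 of 11 fits without 1 library), and its log2 fold change was 0.99 (adjusted p = 0.271) without M3. Pmp22, a myelin membrane protein made by many cell types, was at 372, 549.8, 591, 334 and 1248 CPM against 81.3 to 325 (median 153) CPM (log2 fold change 1.89 ± 0.35 (SE), adjusted p = 0.00265).

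Of 12 neuronal markers edgeR called 1 (8.33%) and DESeq2 called 3, all lower in colon, and 5 had an unadjusted p under 0.05 with edgeR. The gene called by edgeR was Elavl4, an RNA-binding protein of neurons, at 0.434, 0, 1.27, 0 and 0 CPM in colon and 0.934 to 8.57 (median 2.29) CPM in small intestine (log2 fold change -2.97 ± 0.81 (SE), adjusted p = 0.0351; called in 5 of 11 fits without 1 library). Of 18 transmitter and receptor genes edgeR called 1 (5.56%, against 5.18% of all genes), and DESeq2 called 2 lower and 1 higher. The gene called by edgeR was Npy, a peptide of submucosal secretomotor neurons, at 3.62, 4.98, 2.79, 1.48 and 10.4 CPM against 9.88 to 116 (median 33.5) CPM (log2 fold change -3.31 ± 0.90 (SE), adjusted p = 0.0342; called in 5 of 11 fits without 1 library). Summed neuronal markers overlapped, at 46.6 to 117 CPM in colon and 60.1 to 194 CPM in small intestine.

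Called matrix genes were all higher in colon: 17 of 31 tested extracellular matrix genes were higher and none lower, with a median log2 fold change of 1.39. Without M3, 7 were called and the median was 1.17. Postn (chr3:54359267-54391041), the matricellular protein periostin, was at 1033, 1228, 1460.2, 881 and 1801 CPM in colon and 93.7 to 334 (median 167) CPM in small intestine (log2 fold change 2.82 ± 0.30 (SE), adjusted p = 1.33e-05). Col12a1, a fibril-associated collagen, was at 54.7, 55.3, 122, 58.4 and 179 CPM against 10.4 to 43.0 (median 24.6) CPM (log2 fold change 1.94 ± 0.34 (SE), adjusted p = 0.00173), and Lama4, a laminin of vessel and nerve basement membranes, at 70.7, 63.1, 117, 65.8 and 159.7 CPM against 18.9 to 48.4 (median 28.8) CPM (log2 fold change 1.62 ± 0.31 (SE), adjusted p = 0.00361). Every colon library exceeded every small intestine library for these 3 genes. Col3a1, an abundant fibrillar collagen, was at 1800.2, 2626, 3389, 1909.8 and 3708 CPM against 454 to 1889 (median 993) CPM (log2 fold change 1.31 ± 0.37 (SE), adjusted p = 0.0391; called in 4 of 11 fits without 1 library), and was not called without M3 (adjusted p = 0.124).

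Some markers of stromal and vascular cells were also higher in colon. Fibroblast markers were higher in colon for 2 of 10 (Col3a1 and Pi16), blood endothelial markers for 3 of 8 (Cdh5, Kdr and Egfl7), pericyte markers for 2 of 6 (Kcnj8 and Cspg4), lymphatic markers for 1 of 6 (Ccl21a), and none was lower. None of 9 smooth muscle markers or of 4 markers of interstitial cells of Cajal was called with edgeR (5 and 3 had an unadjusted p under 0.05, and DESeq2 called 1 and 1). Summed fibroblast markers ran from 5675 to 11542 CPM in colon and from 1789 to 8350.2 CPM in small intestine. Summed endothelial markers ran from 475 to 2160.3 CPM and from 39.6 to 953 CPM. Their part in the matrix result was not tested. Without M3 none of the 3 endothelial genes was called, at log2 fold changes of 1.71 (Cdh5), 2.20 (Kdr) and 1.79 (Egfl7) against 1.98, 2.51 and 1.81 with it, and of the fibroblast and pericyte genes Pi16 and Kcnj8 kept their calls.

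Among those markers, Kdr, the VEGF receptor of endothelium, was at 128, 56.2, 168, 42.2 and 219.9 CPM in colon and 2.16 to 58.1 (median 17.0) CPM in small intestine (log2 fold change 2.51 ± 0.67 (SE), adjusted p = 0.0316; called in 5 of 11 fits without 1 library). Kcnj8, a potassium channel of pericytes, was at 61.8, 36.3, 30.7, 22.2 and 43.3 CPM against 0 to 15.7 (median 4.99) CPM (log2 fold change 2.53 ± 0.61 (SE), adjusted p = 0.0165). Pi16, which marks adventitial fibroblasts, was at 11.9, 77.2, 92.4, 12.6 and 11.4 CPM against 0 to 6.43 (median 1.92) CPM (log2 fold change 3.82 ± 1.05 (SE), adjusted p = 0.0356; called in 5 of 11 fits without 1 library), with F2 and F3 far above the other colon libraries. Pparg, the adipocyte and enterocyte nuclear receptor, was at 32.0, 33.3, 26.1, 40.3 and 80.5 CPM against 2.52 to 16.9 (median 12.9) CPM (adjusted p = 0.0425; called in 1 of 11 fits without 1 library).

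Of 28 tested signals of the Wnt, R-spondin and BMP families, 4 were higher in colon and 2 lower (3 and none without M3). Wnt5a, a non-canonical Wnt of the mesenchyme, was at 22.4, 21.5, 37.8, 13.3 and 24.3 CPM in colon and 1.36 to 8.04 (median 2.10) CPM in small intestine (log2 fold change 2.76 ± 0.45 (SE), adjusted p = 0.000964). Bmp4, a differentiation signal from stroma to epithelium, was at 123, 154, 113, 82.9 and 113 CPM against 10.8 to 38.9 (median 30.1) CPM (log2 fold change 2.17 ± 0.38 (SE), adjusted p = 0.00157). Colon and small intestine did not overlap for either gene. Sfrp2, a secreted Wnt antagonist, was at 3.47, 12.8, 68.9, 11.5 and 0 CPM against 0 to 0.584 CPM (log2 fold change 6.33 ± 1.44 (SE), adjusted p = 0.0117); it had no count in M3, and leaving out F3, its highest library, ended the call. Rspo2 had no count in colon and was at 0.132 to 8.26 (median 1.79) CPM in small intestine (at least 5.09-fold lower in colon by mean level). Its lowest small intestine library held fewer than 3 counts. Wnt3, a Paneth cell Wnt, was at 0, 0.711, 0, 0 and 0 CPM against 1.56 to 7.2 (median 3.61) CPM (log2 fold change -4.55 ± 1.2 (SE), adjusted p = 0.0357; called in 2 of 6 fits without 1 library). Neither Rspo2 nor Wnt3 was called without M3 (adjusted p = 0.0589 and 0.11).

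All calls among immune cell markers were lower in colon, where 1.36% of all genes were called lower. Calls were made for 3 of 8 B cell markers (1 without M3), 1 of 12 T cell markers, 2 of 4 eosinophil markers (none without M3), and none of 12 macrophage and dendritic cell markers or of 10 MHC class II genes. All 8 B cell markers had negative log2 fold changes, and 7 had an unadjusted p under 0.05. With edgeR, 2 genes of each of the last 2 lists had an unadjusted p under 0.05, all lower in colon, and DESeq2 called none. Gzma, a granzyme of intraepithelial lymphocytes, was at 51.4, 75.6, 10.3, 54.4 and 0 CPM in colon and 237 to 856 (median 521) CPM in small intestine (log2 fold change -3.80 ± 0.91 (SE), adjusted p = 0.0158; -3.48 (adjusted p = 0.0126) without M3). Pax5, the B cell identity factor, was at 2.31, 2.85, 3.05, 2.22 and 0.380 CPM against 7.19 to 28.8 (median 20.8) CPM (log2 fold change -3.14 ± 0.65 (SE), adjusted p = 0.0145; -2.87 (adjusted p = 0.0292) without M3). Ms4a1, which encodes CD20, was at 70.3, 56.7, 29.1, 42.9 and 0 CPM against 74.4 to 581 (median 336) CPM (adjusted p = 0.0461; called in 1 of 11 fits without 1 library). The 4 colon libraries other than M3 also lay below all small intestine libraries for Gzma, Pax5 and Ms4a1.

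Chemokines that steer lymphocytes differed in both directions, with 3 of 32 tested chemokine and cytokine genes higher in colon and 1 lower. Ccl25 (chr8:4325205-4360020), which draws gut-homing T cells to the small intestine, was at 3.76, 8.36, 3.93, 5.18 and 6.27 CPM in colon and 66.7 to 559 (median 115) CPM in small intestine (log2 fold change -5.05 ± 0.56 (SE), adjusted p = 1.6e-05). Ccl21a, which guides cells into lymphatics, was at 105, 308, 253, 216 and 208 CPM against 9.25 to 60.4 (median 21.3) CPM (log2 fold change 3.09 ± 0.77 (SE), adjusted p = 0.0209). Cxcl12, a stromal chemokine, was at 778, 935, 899, 707 and 862 CPM against 112 to 575 (median 235) CPM (log2 fold change 1.63 ± 0.38 (SE), adjusted p = 0.0133). None of these 3 genes overlapped between regions, and each kept its call without M3. Il34, a macrophage growth factor, was at 29.9, 22.4, 32.5, 30.7 and 73.9 CPM against 4.28 to 20.9 (median 9.10) CPM (log2 fold change 1.74 ± 0.42 (SE), adjusted p = 0.0168), with an adjusted p of 0.0913 without M3. Gbp2, an interferon-induced GTPase, was the 1 called gene of 23 interferon-stimulated genes (4.35%, against 5.18% of all genes), at 459, 351, 496, 289 and 261 CPM against 46.8 to 238 (median 104) CPM (log2 fold change 1.60 ± 0.38 (SE), adjusted p = 0.0151).

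Whether the regional difference was the same in both plexuses was asked with an interaction test, which called 168 of 14090 genes (1.19%). It called 97 genes without colon M3 and 106 without colon F3. In the myenteric libraries 449 genes (3.19%) differed by region, a count that fell to 206, 272 and 286 without small intestine myenteric F1, F2 and M3. No Hox gene was called for the interaction with edgeR or DESeq2 (6 of 28 had an unadjusted p under 0.05): Hoxa10 had a log2 fold change of 7.15 ± 0.88 (adjusted p = 0.000135) in the myenteric plexus, Hoxa11 of 9.48 ± 0.94 (adjusted p = 5.74e-05) and Hoxc8 of -5.44 ± 0.96 (adjusted p = 0.00474). Hoxb13 and Hoxd13 were not called there, at 4.75 ± 1.53 (adjusted p = 0.0926) and 3.07 ± 1.25 (adjusted p = 0.211). The median over the 28 Hox genes was 0.25 in the myenteric plexus, with 6 higher and 4 lower, against 1.32 in the submucosal plexus. The interaction was called for 5 of 12 Paneth genes, 4 of 17 fat absorption genes and 2 of 31 matrix genes with edgeR, and for 11, 8 and 2 of them with DESeq2. Olfm4 had a log2 fold change of 1.22 ± 1.29 (adjusted p = 0.724) in the myenteric plexus (interaction -12.02 ± 2.29 (adjusted p = 0.0168)) and Retnlb of -2.42 ± 1.43 (adjusted p = 0.428) (interaction 10.84 ± 1.92 (adjusted p = 0.00942)). That of Ccl25 was -0.56 ± 0.47 (adjusted p = 0.632) there (interaction -4.49 ± 0.69 (adjusted p = 0.00386)).

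Outside the epithelial genes, Postn had a log2 fold change of 0.35 ± 0.28 (adjusted p = 0.605) in the myenteric plexus, with an interaction of 2.47 ± 0.41 (adjusted p = 0.00605). Vim was at -0.05 ± 0.20 (adjusted p = 0.949) there (interaction 1.33 ± 0.29 (adjusted p = 0.0229)), Col12a1 at -0.58 ± 0.34 (adjusted p = 0.412) (interaction 2.52 ± 0.48 (adjusted p = 0.0168)) and Entpd2 at -0.10 ± 0.41 (adjusted p = 0.954) (interaction 2.38 ± 0.59 (adjusted p = 0.047)). Summed epithelial markers in the myenteric libraries ran from 24.0 to 4021 CPM in colon (median 156) and from 33.6 to 461 CPM in small intestine (median 72.8), against submucosal medians of 6537 and 3379 CPM. The highest myenteric colon library lay above 1 submucosal colon and 3 submucosal small intestine libraries, and the part of epithelial RNA in the interactions was not tested.

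Whether the regional difference was the same in both sexes was also tested. The interaction of region with sex called no gene with edgeR (397 of 14090 had an unadjusted p under 0.05). The male colon group held 2 libraries, of which 1 was M3.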

How the data were processed

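RNA-seq libraries were made with Smart-seq2, per the labels' protocols. The deposited table holds whole-number read counts per gene, made by the authors. Per the submitters' processing notes, Trim Galore 0.4.4, STAR 2.5.3, DESeq2 and GRCm38 were used; the counter, the annotation and whether strand was used are not given in the sources used here. How glia were isolated, and whether libraries came from separate mice, is not stated in the labels, so p-values measure the spread between these libraries only.

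The 22 untreated libraries (region by plexus) were fitted together with edgeR 4.0.16 in R 4.3.3: filterByExpr, TMM, quasi-likelihood test, two-sided, Benjamini-Hochberg adjustment over 14090 genes, threshold 0.05. CPM were computed from the TMM-scaled library size. The SE is the absolute log2 fold change over the square root of F. Library measures were compared with exact permutation tests (scipy 1.17.1). The fit was tested on simulated data of 13825 genes. Alternatives were RLE size factors, DESeq2 1.42.0, filters on low counts, sex as a covariate, replicate blocks, each sex alone, submucosal libraries alone and leaving out each library. Intervals and floors cover counting error only. No 2 replicates agreed within sampling noise (chi-square per degree of freedom 16.5 to 126 over 25 pairs), so each counted as 1 sample.

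Named genes were the 10 per direction with the largest fold change among called, non-overlapping genes whose average log2 CPM reached 3, predicted genes left out; up to 3 called genes per list and direction with the smallest p; every glia marker; and every called Hox gene. The genes, lists and tests were chosen with earlier results of these data known. A bound against 3 counts per library is given where the lower group had no count, and a ratio of summed counts with its exact 95% interval where it had 1 to 3 counts. The bound uses the mean of the higher group, so a high library can carry it. RefSeq promoters were matched by symbol (13916 of 14090 symbols were in RefSeq, and 11068 genes had a window). Some genes of these lists enter the counts and sums but are not reported here by name. Injected and other-genotype libraries were not used here.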

Additional observations from a re-analysis of the deposited data

Results flagged for a closer look

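Each gene and marker list named above was checked for a library far from the others of its region, by the gap to the nearest library as a share of the group's range on the log2(CPM + 1) scale, against Dixon's 95% critical value. Of 277 such checks 20 passed it, and chance alone passes about 1 in 20 groups. In colon all 14 fell on replicate M3. It was the lowest library for the B cell genes Pax5 (gap 0.788 of the range) and Ms4a1 (0.798), and for the summed markers of B cells (0.939), macrophages and dendritic cells (0.864), MHC class II presentation (0.833), T cells (0.799), plasma cells (0.775), proliferation (0.764), erythroid cells (0.742), immediate early and heat shock genes (0.742) and tuft cells (0.723). It was the highest colon library for Car2 (0.713), for the summed markers of interstitial cells of Cajal (0.784) and for sugar and peptide digestion (0.760). In small intestine replicate M1 was highest for Retnlb (0.634), Slc51a (0.653), the summed goblet cell markers (0.642), sugar and peptide digestion (0.658) and bile acid genes (0.895). Replicate F1 was highest for the summed mast cell markers (0.861), of which 1 of 8 passed the count filter.

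The regional difference itself differed between the submucosal and myenteric plexuses for 23 of the named genes, by edgeR's interaction test (adjusted p from 0.00386 to 0.0496). Positive values mean a larger colon excess in submucosal libraries. On the log2 scale the interaction was -9.49 for Defa17, -9.31 for Defa21, -8.78 for Defa22, -9.55 for Defa24, -8.89 for Defa30 and -8.22 for the defensin-like AY761184. Other genes of the mucosa stood at -12.02 (Olfm4), -8.58 (Cck), -7.90 (Mptx2), -7.24 (Fabp1), -6.48 (Apoa1), -4.90 (Lrat), -4.49 (Ccl25) and -3.77 (Anpep). The factor Onecut2 was at -8.90. Positive interactions were found for Retnlb (10.84), Car1 (8.47), St6galnac6 (2.22), the endothelial cadherin Cdh5 (3.01), the matrix genes Col12a1 (2.52) and Postn (2.47), the glia marker Entpd2 (2.38) and the filament gene Vim (1.33). Where both groups of a plexus had few or no counts, the size of the value depends on the prior count of the fit.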

How the results depend on the processing

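The 730 submucosal calls ranged from 357 (without colon M3) to 893 (without small intestine M2) when single libraries were left out. DESeq2 called 1149 (806 higher, 343 lower), females alone gave 131 and males alone 37. The 11 submucosal libraries fitted alone gave 701, split 440 higher and 261 lower against 538 and 192. The interaction count of 168 ranged from 97 to 246 without single libraries and was 577 with DESeq2. The myenteric count of 449 ranged from 206 to 475, and was 987 with DESeq2 and 246 with a replicate block. The interaction with sex called 0 genes in all 4 fits (edgeR), with 406 genes at an unadjusted p under 0.05 with RLE size factors, 329 with the stricter filter and 525 in the submucosal fit. With sex and number as a replicate block the submucosal count was 797, or 896 in the submucosal libraries alone, and the interaction count 141. Deviations of same-numbered colon and small intestine libraries correlated at a mean of 0.184 (3 of 5 pairs over 0.1), against -0.0308 for different numbers, and 2 of 5 colon libraries correlated best with their own number. By the number in the titles, which differs for colon M3, the mean was 0.198 (4 of 5 pairs over 0.1) and the blocked count 723. Not every pair was over 0.1 and the labels state no pairing, so the block was not used for the reported values; whether the numbers pair the libraries is not settled. The difference in total counts was 25012, and -441523 to 730342 without single libraries; that in the share of the top 20 genes was -5.12 percentage points, -5.85 to -4.10 without single libraries, and -5.46 for the top 50 (adjusted p = 0.0519). No called named gene changed sign. Of 98, 66 lost the call in females alone, 79 in males alone, 24 without colon M3, 22 without colon F3, 8 under the block (among them Amn, Hoxd10, Il5ra, Kdr, Npy, Osr1 and Prg2), 7 under the block by title number (among them Amn, Il5ra, Ms4a1, Npy, Osr1 and Prg2) and 1 with DESeq2 (Ms4a1). Fitted alone, the submucosal libraries gave values for 91 of the 98, and 7 lost the call (Cdh5, Col3a1, Cr2, Cspg4, Gfra2, Kdr and Ms4a1). With the block in those libraries 7 lost it (Cdh5, Cr2, Cyp3a25, Gfap, Gzma, Pparg and Slc51a). The 18 called in fewer than 6 of the fits that left out a library were Amn, Col3a1, Cr2, Egfl7, Elavl4, Gata5, Gfra2, Hoxd10, Il5ra, Kdr, Ms4a1, Npy, Osr1, Pi16, Pparg, Prg2, Rdh7 and Wnt3. Uncalled glia markers changed sign: Erbb3 under the block (log2 -0.084, or -0.037 in submucosal libraries alone) and Fabp7 in females (0.029). Without single libraries Erbb3 ran from -0.44 to 0.35, Foxd3 from -0.38 to 0.73, Cdh19 from -0.071 to 0.76 and Scn7a from -0.065 to 1.01. In simulated counts at this depth, 10.4% of changes of 1 on the log2 scale were recovered, 65.7% of changes of 2 and 100% of changes of 4, so small differences were mostly not detectable.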

Other observations

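The gene groups in the next paragraphs were chosen after their values were seen. They are given as values with no test, and the median log2 fold change over all genes tested was -0.054. Genes of sulfide oxidation and transsulfuration, the routes that clear hydrogen sulfide and make cysteine, had a median log2 fold change of 2.07 (colon over small intestine, 8 genes). Sqor, the mitochondrial sulfide quinone oxidoreductase, stood at 179.5, 209, 133, 112 and 397 CPM in colon and at 49.4 to 75.3 (median 59.1) CPM in small intestine (log2 fold change 1.74 ± 0.27, SE). Ethe1, the persulfide dioxygenase, had a log2 fold change of 2.63 ± 0.40, the sulfurtransferase Tst of 2.84 ± 0.43, the methanethiol oxidase Selenbp1 of 2.28 ± 0.48 and Cbs, cystathionine beta-synthase, of 5.37 ± 1.12. Suox and Cth of the same group were at -0.46 ± 0.55 and 0.07 ± 0.97. M3 was the highest colon library for Sqor, Ethe1, Tst, Selenbp1 and Cbs. The 11 tested S100 genes, small calcium-binding proteins, had a median of 1.30. S100a6 was at 1756, 1199.8, 649, 1178 and 1429 CPM in colon and at 145 to 271 (median 195) CPM in small intestine (log2 fold change 2.61 ± 0.25), while S100a13 was at a log2 fold change of 0.59 ± 0.23.

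The 11 annexins, calcium-dependent membrane-binding proteins, had a median log2 fold change of 0.85, from -3.65 ± 0.84 for Anxa13 to 8.05 ± 2.00 for Anxa8, a fitted value against no count in small intestine. The 7 genes of caveolae, the small pits of the cell surface that are abundant in endothelium and muscle, had a median of 1.71. Cav1, which forms their coat, was at 863, 597, 543, 259 and 498 CPM in colon and at 15.8 to 213 (median 124) CPM in small intestine (log2 fold change 2.31 ± 0.49). Pitx1, a homeobox factor of the hindlimb, was at 51.6, 58.7, 43.3, 57.3 and 48.0 CPM in colon and at 1.32 to 12.7 (median 5.46) CPM in small intestine (log2 fold change 3.03 ± 0.49). In the myenteric plexus it was at 2.30 to 9.07 CPM in colon and had no count in 5 of 6 small intestine libraries. Its log2 fold change there, 6.77 ± 0.738, is a fitted value against almost no counts. The transcription factor genes Myrf and Myrfl had no count in colon and were at least 11.7-fold and at least 14.2-fold higher in small intestine by mean level, against 3 counts per library. Myrf was at 1.45 to 21.2 (median 3.02) CPM there, highest in M3, and Myrfl at 3.58 to 21.2 (median 7.21) CPM, highest in M1. Ccr9, the receptor of Ccl25 on gut-homing lymphocytes, was at 3.18, 9.78, 6.34, 4.81 and 0 CPM in colon and at 38 to 174 (median 51.7) CPM in small intestine (log2 fold change -4.03 ± 0.83). The galectin Lgals2 had a log2 fold change of -7.44 ± 0.82.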
